A study of Brassica rapa with 18 samples.

Results

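The comparison concerns leaves of Brassica rapa seedlings 24 h after they were sprayed with methyl jasmonate (MeJA), set against leaves sprayed without the hormone and taken at the same hour. It rests on 6 of the 18 libraries of the series, 3 from MeJA-sprayed and 3 from mock-sprayed plants, chosen by treatment and harvest time alone. All plants were wild type, of the inbred line R-o-18 of the variety trilocularis, and 10 days old when sprayed. The MeJA spray was 10 mL of a 50 µM solution with 0.1% Tween-20, and the mock spray was water with the same detergent. Growth was at 22 °C in days of 16 h of light, on half-strength medium after 3 days at 4 °C. The remaining 12 libraries, taken at 10 min and at 72 h, are used only to see how genes picked at 24 h behaved in plants that did not pick them. Among them, MeJA replicate 2 of 10 min stood apart from its fellow replicates, and most values that rest on it are given with and without it or by library. How many seedlings went into each library is not given in the sources used here.

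Jasmonates are plant hormones made from membrane fatty acids after wounding or attack by insects and some fungi. In Arabidopsis, the amino acid conjugate of jasmonic acid is bound by the receptor COI1, which marks the JAZ repressors for degradation and so frees transcription factors such as MYC2. In plants of the cabbage family the genes switched on in this way include those for defence proteins, for jasmonate synthesis itself and for glucosinolates, the mustard oil precursors, while growth and photosynthesis genes often decline. MeJA is the volatile methyl ester and is converted inside the plant.

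The deposited table gives only identifiers of the forms Bra and ENSRNA and does not pair them with gene names. Of its 42186 identifiers, 1 matched RefSeq's gene table (assembly CAAS_Brap_v3.01), and that one had no count in these 6 libraries. Lists of jasmonate, glucosinolate, anthocyanin or photosynthesis genes and of leaf marker genes could therefore not be filled, the label of the tissue could not be checked against markers, and no function is given to any gene below. Genes are described by identifier, level, direction and reproducibility.

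With TMM scaling, MeJA raised more genes than it lowered, and raised them further. Scaling by library totals alone turned the balance of numbers, as given below. Of 25388 features with enough counts to be tested, 2861 were higher with MeJA (11.3%) and 1957 were lower (7.71%), together 19.0%, at a Benjamini-Hochberg adjusted p under 0.05 in edgeR's quasi-likelihood test. The median log2 fold change was 0.97 among the genes called higher, -0.87 among those called lower and -0.01 over all features tested. In whole-leaf RNA, fewer cells of a type and less RNA per cell cannot be told apart. A change of at least 2-fold was reached by 1377 of the genes called higher (5.42% of those tested) and 800 of those called lower (3.15%). At 4-fold or more the numbers were 495 and 144, at 16-fold or more 146 and 11, and at 64-fold or more 57 and 0, with the 13 called genes that had no mock count put at the fold that 3 counts over the mock group would give. Thus the small changes were spread over both directions, while the largest ones were rises.

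The calls covered the whole range of levels. Levels are given as CPM, in which the TMM factor and the size of each library are taken out, and are not corrected for gene length, so they rank genes by reads and not by molecules. Features were classed by the mean of their MeJA and mock levels, so a strong rise itself moved a gene into a higher class, and no trend is read from the classes. Among features of 1 to 10 CPM, 8.08% were called higher and 7.70% lower. Among features of 10 to 100 CPM these shares were 13.9% and 7.58%, and among features of 100 to 1000 CPM they were 21.0% and 12.4%. Of the 99 features of 1000 CPM and over, 15 were called higher and 4 lower.

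**Figure D1:**
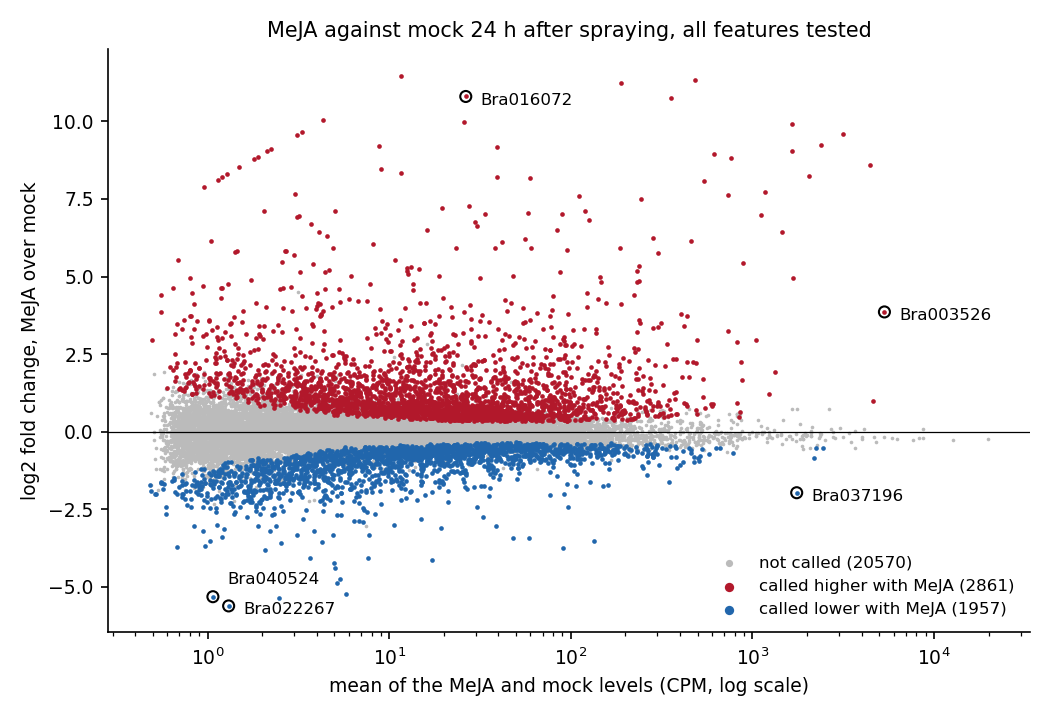
Each point is 1 of the 25388 features tested at 24 h, with the mean of its MeJA and mock levels (CPM, log scale) on the horizontal axis and its log2 fold change, MeJA over mock, on the vertical axis; red points were called higher, blue points lower and grey points neither. Among genes with mock counts, rises reach a log2 value of 11.35, and 9.91 among the 10 most abundant raised genes (13 genes without a mock count are drawn at their fitted value, which is no measured size), while the deepest called fall is -5.61; the circled identifiers are those described in the text.

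The scaling and single libraries moved these counts. With libraries scaled by their totals alone, the balance turned to 2130 genes higher and 3051 lower (41.1% of the calls higher, against 59.4% with TMM). Under that scaling the median over all features moved to a log2 value of -0.13. Leaving out MeJA replicate 3 gave 1449 genes higher and 548 lower. Leaving out mock replicate 1 gave 1527 and 792, and leaving out mock replicate 2 gave 1714 and 880. A fit of all 18 libraries, which pools the spread of 6 groups, called 4098 features higher (15.4%) and 3490 lower (13.1%), 7588 in all (28.5%), and 4730 of them were also called by the 6 libraries of 24 h alone, all in the same direction.

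A sizeable part of the sequenced messages came from other genes after MeJA than after mock. The share of counts redirected, which is the summed absolute difference between the mean shares of each feature divided by 2, was 16.9% between the MeJA and the mock libraries of 24 h. Single pairs of a MeJA and a mock library differed by 13.4% to 20.7%. Pairs of mock libraries differed by 5.61%, 6.68% and 6.84%, and pairs of MeJA libraries by 7.68%, 8.86% and 11.97%. Every pair across treatments thus differed by more than any pair within a treatment. The mean across treatments exceeded the mean within treatments by 10.1 percentage points (exact permutation test over the 6 libraries, for a difference as large or larger, p = 0.10). This is the smallest value that 3 against 3 can give, since swapping the names of the groups leaves the difference unchanged.

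The same measure was smaller at the other times, each with its own mock libraries. Between the group means it was 7.18% at 10 min and 8.51% at 72 h, and pairs across treatments differed by 5.63% to 13.1% and by 7.38% to 10.8%. At 10 min, MeJA replicate 2 stood apart from its fellow replicates, and without it the redirected share was 5.99%. At 72 h, as at 24 h, every pair across treatments differed by more than any pair within a treatment, while at 10 min the ranges overlapped. Fits on the 6 libraries of each time called 908 features higher (3.64%) and 416 lower (1.67%) at 10 min, 1324 in all (5.30%), or 1531 without MeJA replicate 2. At 72 h they called 2292 higher (9.02%) and 1417 lower (5.58%), 3709 in all (14.6%). The difference in redirected share between times was not tested.

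**Figure D2:**
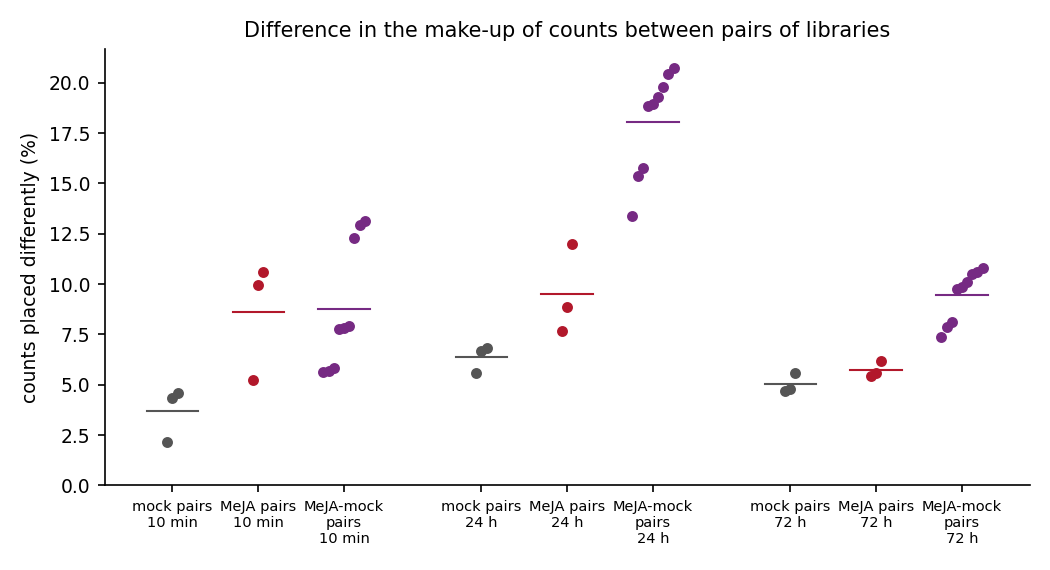
Each point is a pair of libraries of the same time, and the vertical axis is the share of counts (%) placed differently in the pair; grey points are pairs of mock libraries, red points pairs of MeJA libraries, purple points pairs across treatments, and lines are means. At 24 h the purple points run from 13.4% to 20.7%, above all red and grey points of that time.

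The gain was carried by few genes and the loss by many. Features with a larger mean share in MeJA numbered 13698, and the leading 60 of them held 50% of the gain or more. Features with a smaller share numbered 20725, and 285 were needed to reach the same mark. The 10 largest gains added 4.64 percentage points (27.4% of the change), all from genes called higher. The 10 largest losses took 2.29 points (13.5%), and 2 of these 10 genes were called lower.

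Most of the gain lay in called genes, and most of the loss did not. Genes called higher made up 87.2% of the gain, and those raised at least 2-fold made up 71.3% by themselves. Genes called lower made up 27.1% of the loss, and those lowered at least 2-fold 7.47%. The largest single loss was that of Bra028181, which had the most counts of all features in mock and was picked out after its values were seen. It held 2.32%, 1.99% and 2.38% of the counts in the mock libraries and 1.44%, 2.03% and 1.72% in the MeJA libraries. The groups overlapped, and after TMM scaling its log2 fold change of -0.24 was not called (edgeR adjusted p = 0.471). Shares of a library add up to 100%, so a gain anywhere lowers other shares, whether or not the amount of those transcripts in the leaf changed.

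**Figure D3:**
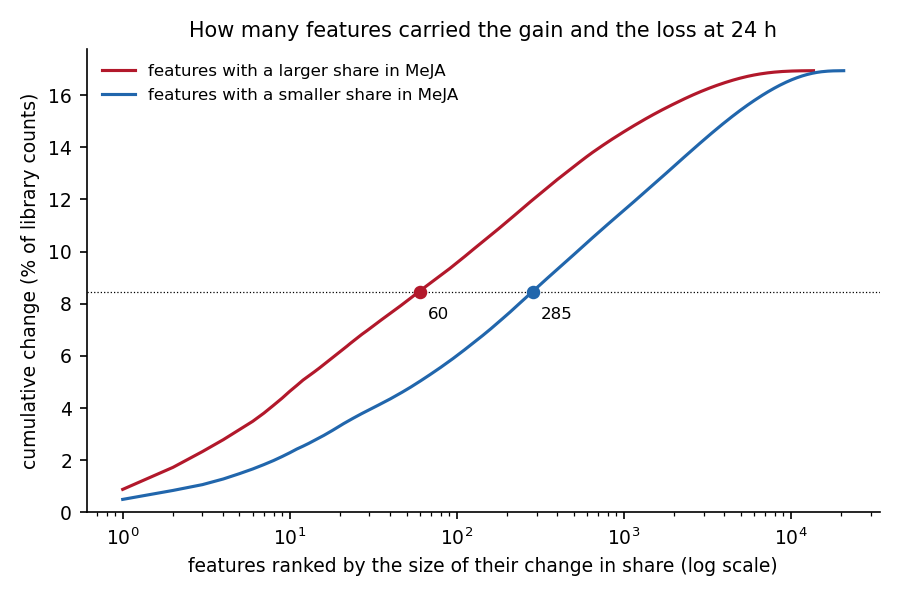
Features are ranked along the horizontal axis (log scale) by the size of their change in mean share of counts between mock and MeJA at 24 h, and the vertical axis is the cumulative change (% of library counts), red for gains and blue for losses. Dots mark where the dotted line at 50% of the total is reached, after 60 features for the gain and 285 for the loss; both curves end at 16.9%.

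The genes called higher held 24.0%, 20.1% and 24.99% of the counts in the 3 MeJA libraries and 7.73%, 8.39% and 8.68% in the mock libraries. Those called lower held 5.62%, 5.80% and 4.88% with MeJA and 10.1%, 10.7% and 9.28% with mock. These libraries chose the genes, so the values describe the size of the change and test nothing. The plants of the other times did not choose them. At 10 min the genes called higher at 24 h held 10.1%, 13.5% and 9.30% of the counts with MeJA, where replicate 2 was again the highest, and 7.56% to 7.76% with mock. At 72 h they held 12.3%, 12.3% and 10.9% with MeJA and 7.39% to 7.77% with mock. The genes called lower at 24 h held 9.38%, 8.47% and 9.71% with MeJA at 10 min, where replicate 2 was the lowest. In the mock libraries of 10 min they held 10.5% to 10.9%. At 72 h they held 7.55% to 7.66% with MeJA and 8.38% to 9.15% with mock. In both sets and at both times the MeJA and mock libraries did not overlap. The choice of the genes at 24 h favours a wider gap at that time.

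**Figure D4:**
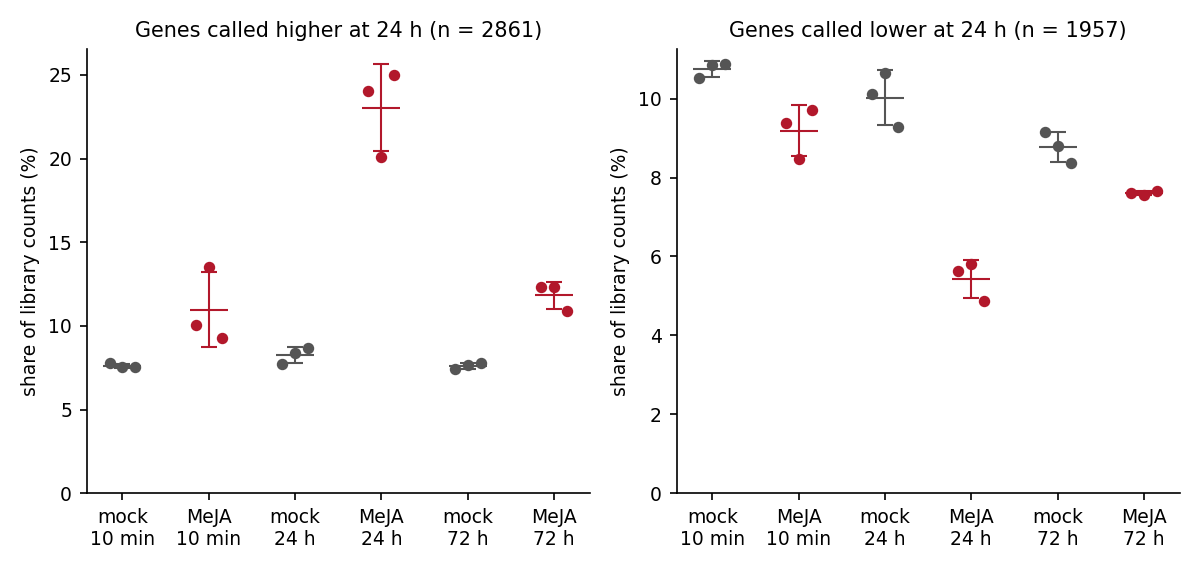
Share of library counts (%) held by the 2861 genes called higher at 24 h (left) and by the 1957 called lower (right) in each of the 18 libraries; points are libraries (red MeJA, grey mock), and bars give the mean and SD of 3. The genes called higher fill 20.1% to 24.99% of the MeJA libraries of 24 h and at most 13.5% of any other library.

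The most abundant raised genes were among the most sequenced messages of the leaf after MeJA. They were ranked by mean MeJA level among the 1355 genes (5.34% of those tested) called higher, raised at least 2-fold and with all MeJA values above all mock values. First was Bra003526, at 10285, 8515 and 11155 CPM in MeJA replicates 1 to 3 and at 544, 775 and 744 CPM in the mock replicates. All MeJA values were thus over 10 times any mock value. Its log2 fold change was 3.86 (SE 0.22; edgeR adjusted p = 7.31e-06), and by reads it moved from rank 143 of all features in mock to rank 3 with MeJA.

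The other 9 of the leading 10 started far lower. Their mock means ran from 3.45 to 105.0 CPM and their MeJA means from 2331 to 8885 CPM, with log2 fold changes from 4.94 to 9.91. Their mock ranks lay between 1273 and 19103, and their MeJA ranks between 5 and 36. Together the 10 genes held 4.92%, 3.81% and 5.36% of the MeJA counts and 0.0735%, 0.109% and 0.0984% of the mock counts. Of the 10 features with most reads in the MeJA libraries, 4 were not among the leading 10 of mock, and all 4 were called higher. Of the leading 100, 22 were not in the leading 100 of mock, and all 22 were called higher. Of the 22 features that left the leading 100, 2 were called lower.

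The same 10 genes, ranked by their level at 24 h, were also followed in the plants of the other times. They held 0.0995%, 0.609% and 0.125% of the counts with MeJA at 10 min, against 0.0373% to 0.0387% with mock, so that replicate 2 alone held several times the share of its fellow replicates. At 72 h they held 0.570%, 0.680% and 0.497% with MeJA and 0.0284% to 0.0442% with mock. Bra003526 itself stood at 821, 4189 and 1036 CPM with MeJA at 10 min and at 335 to 350 CPM with mock, on the scale of all 18 libraries. Its log2 fold change there was 2.59 (edgeR adjusted p = 0.0371), or 1.46 without replicate 2 (edgeR adjusted p = 5.87e-05). At 72 h it stood at 2474, 2555 and 2146 CPM with MeJA and at 211 to 370 CPM with mock, again without overlap. The log2 difference there was 3.12 (SE 0.19; edgeR adjusted p = 9.33e-06). A difference between its response at 24 h and at 10 min (log2 1.30; edgeR adjusted p = 0.250) or 72 h (log2 0.76; edgeR adjusted p = 0.580) was not established. The difference from 10 min was not tested without MeJA replicate 2 of that time.

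The abundant lowered genes fell by much less. The ranking took mean mock level among the 789 genes (3.11%) called lower, lowered at least 2-fold and with all MeJA values below all mock values. First was Bra037196, at 2745, 3048 and 2589 CPM in the mock replicates and at 997, 628 and 520 CPM with MeJA, with no overlap. Its log2 fold change was -1.97 (SE 0.24; edgeR adjusted p = 0.000699), and its rank by reads moved from 27 in mock to 158 with MeJA. The next 9 genes had mock means from 245.4 to 542 CPM, far below that of Bra037196, and log2 fold changes from -3.51 to -1.06. The leading 10 lowered genes together held 0.660%, 0.724% and 0.608% of the mock counts and 0.261%, 0.201% and 0.153% of the MeJA counts. In the other plants they held 0.666%, 0.548% and 0.680% with MeJA at 10 min, where replicate 2 was the lowest. In the mock libraries of 10 min they held 0.854% to 0.897%. At 72 h they held 0.457% to 0.498% with MeJA and 0.547% to 0.638% with mock, without overlap at either time.

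Bra037196, chosen by its values at 24 h, was compared with its response at the other times. On the scale of all 18 libraries, it stood with MeJA at 2908, 2361 and 2994 CPM at 10 min, below its mock values of 4091 to 4209 CPM, and at 1964, 2289 and 2138 CPM at 72 h, below mock values of 2344 to 2883 CPM. Its log2 fold change was -0.57 at 10 min (SE 0.11; edgeR adjusted p = 0.0268) and -0.27 at 72 h (SE 0.10; edgeR adjusted p = 0.0903, not called). At 10 min without MeJA replicate 2 it was -0.47 (edgeR adjusted p = 0.00164). In the fit of all 18 libraries its response at 24 h lay lower than that at 10 min by a log2 value of -1.37 (edgeR adjusted p = 0.00588) and lower than that at 72 h by -1.68 (edgeR adjusted p = 0.00316). Neither call was lost on leaving out any of the 12 libraries of its test. The gene was chosen by its fall at 24 h, which favours a larger fall at that time. The adjusted p-values and the fits with a library left out do not allow for this choice. The mock level of this gene also changed over the series, from 4156 ± 59.6 CPM (SD, n = 3) at 10 min to 2797 ± 232 CPM at 24 h. The labels give the harvest time as the batch, so time, plant age and batch cannot be told apart in such comparisons, whereas MeJA and mock of 24 h share a batch.

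By the limits set here, more genes were off in mock and on with MeJA than the reverse, and both numbers moved with the libraries and filters used. On genes were those called higher with at most 3 counts over the 3 mock libraries and a mean of at least 1 CPM with MeJA. There were 34 of them (0.134% of the features tested), and 2 off genes by the mirrored rule (0.00788%). These numbers became 35 and 20 on leaving out MeJA replicate 1, 45 and 9 with no filter on low counts, and 25 and 7 with a minimum mean of 1 CPM. They were 64 and 2 on leaving out mock replicate 2. Every feature tested that had at most 3 mock counts was among the 34, since such a feature enters the test only through high MeJA counts and had to differ; the numbers are thus a description. Over the whole table, 12275 features had at most 3 counts over mock and 12229 over MeJA. A further 12 and 13 features met the rules on counts and levels for on and off but did not pass the filter on low counts and were not tested.

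The most abundant on gene was Bra016072, with 436, 997 and 949 counts in the MeJA libraries and 0, 1 and 0 in the mock libraries. It stood at 52.8 ± 20.4 CPM (SD, n = 3) with MeJA, a ratio of 2478 to mock (exact 95% binomial interval 444 to 97911; edgeR adjusted p = 7.31e-06). As an on gene it had to differ, so its adjusted p-value is no support for the rise. Molecular identifiers are not mentioned for these libraries, and intervals and floors here cover counting error alone. The ratio was 1622 without mock replicate 1, and without mock replicate 2, which held the single count, the gene was at least 554-fold higher. At 10 min it had 2, 51 and 3 counts with MeJA and none with mock, so that 51 of 56 counts lay in replicate 2. At 72 h it had 31, 13 and 18 counts with MeJA and 0, 1 and 0 with mock (edgeR adjusted p = 0.00238). There too it entered the test only through its MeJA counts.

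The other 33 on genes had MeJA means from 1.05 to 51.4 CPM, with a median of 3.78. All 34 had counts in each MeJA library, and 13 had none in any mock library. In the mock libraries of 24 h, 3 counts corresponded to 0.194 to 0.208 CPM by library total. Summed over the 34 genes, the MeJA libraries of 24 h held 4190, 3160 and 5979 counts in replicates 1 to 3, and the mock libraries 11, 18 and 13. In mock plants of the other times the sums stayed between 9 and 27, and 23 of the 34 genes had at most 3 counts in each of the 3 mock groups. With MeJA the sums were 70, 689 and 136 in replicates 1 to 3 at 10 min, where replicate 2 held most, and 211, 272 and 137 at 72 h.

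**Figure D5:**
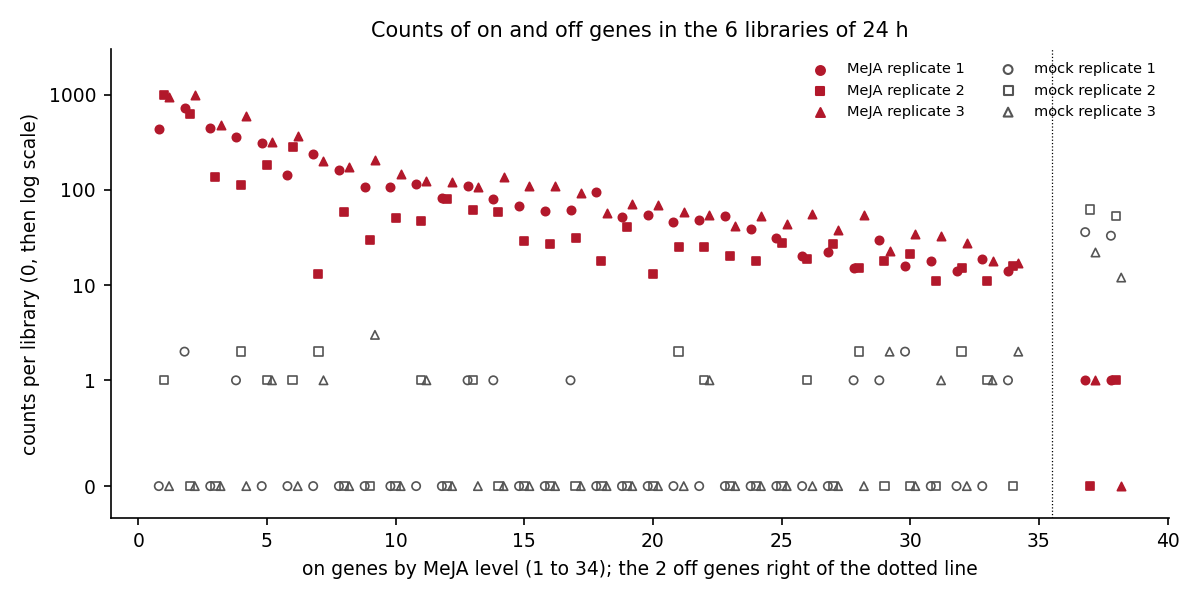
Counts per library (0, then log scale) of the 34 on genes, ordered along the horizontal axis by MeJA level, and of the 2 off genes to the right of the dotted line; filled red symbols are MeJA and open grey symbols mock libraries of 24 h, with a shape for each replicate. MeJA replicate 2 (red squares) is the lowest MeJA library for 27 of the 34 on genes.

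The 2 off genes were scarce in mock as well. They were the only features tested with at most 3 MeJA counts. Such a feature enters the test only through its mock counts and had to differ, so their adjusted p-values are no support for the fall. Bra022267 had 36, 62 and 22 counts in the mock libraries and 1, 0 and 1 in the MeJA libraries, 57.7-fold lower with MeJA (exact 95% binomial interval 15.6 to 482; edgeR adjusted p = 0.000888). Bra040524, named because only 2 off genes were found, had 33, 53 and 12 counts in mock and 1, 1 and 0 with MeJA, 47.1-fold lower (exact 95% binomial interval 12.7 to 394; edgeR adjusted p = 0.00310) and 29.8-fold without MeJA replicate 3. In mock they stood at 2.57 ± 1.33 and 2.09 ± 1.33 CPM (SD, n = 3). The MeJA and mock values did not overlap for either gene, but mock replicate 3 was the lowest mock library for both.

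At 10 min neither off gene was called. Bra022267 had 8, 52 and 37 counts with MeJA and 51, 59 and 40 with mock (log2 fold change -0.56; edgeR adjusted p = 0.505). Bra040524 had 20, 44 and 21 counts with MeJA and 28, 36 and 31 with mock (log2 fold change -0.10; edgeR adjusted p = 0.878). Without MeJA replicate 2 of 10 min the log2 fold change of Bra022267 was -1.05 (edgeR adjusted p = 0.204). That of Bra040524 was -0.53 (edgeR adjusted p = 0.305), and neither was called. At 72 h both genes had too few counts to be tested in the libraries of that time alone. They had 11 and 6 counts over the MeJA libraries and 40 and 60 over the mock libraries. Both genes were chosen by having at most 3 MeJA counts at 24 h, which favours a wide difference from other times. The adjusted p-values of such differences do not allow for this choice. The responses at 24 h and 10 min differed by a log2 value of -5.04 for Bra022267 (edgeR adjusted p = 0.0297) and -5.19 for Bra040524 (edgeR adjusted p = 0.0299). Each of these calls was lost on leaving out 6 of 12 libraries in turn, with adjusted p up to 0.0944 and 0.109, while the differences stayed between -5.50 and -4.56 and between -5.60 and -4.64. Between 24 h and 72 h, the fit of all 18 libraries gave a log2 difference of -3.73 for Bra022267 (edgeR adjusted p = 0.248). For Bra040524 it was -2.03 (edgeR adjusted p = 0.647), and neither was called. The number of off genes was 20, 13 and 8 when MeJA replicates 1, 2 and 3 were left out in turn. It was 9 on leaving out mock replicate 3. The number of on genes was 54, 64 and 60 when mock replicates 1, 2 and 3 were left out in turn. A smaller group meets the limit of 3 counts more easily, the MeJA group for off genes and the mock group for on genes.

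The MeJA replicates differed in the size of their response. Of the genes called higher, 2824 (98.7%) had all MeJA values above all mock values, and of those called lower, 1940 (99.1%) had all below, which the calls themselves favour. Over all features tested, the groups did not overlap in 37.5% (19.8% with MeJA above mock and 17.7% below). In MeJA replicate 1, 2 and 3, the median log2 difference from the mock mean was 0.95, 0.82 and 1.09 over the genes called higher and -0.81, -0.79 and -0.96 over those called lower. Replicate 3 was thus the farthest from mock in both directions.

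Replicate 2 lagged in the rises and replicate 1 in the strong falls. Of the 1355 genes raised at least 2-fold without overlap, replicate 2 was the lowest MeJA library for 917 (67.7%), replicate 1 for 379 and replicate 3 for 59 (4.35%). Of the 789 genes lowered at least 2-fold without overlap, replicate 1 was the highest MeJA library for 480 (60.8%), replicate 2 for 223 (28.3%) and replicate 3 for 86 (10.9%). Among the leading 10 raised genes, replicate 2 was the lowest for 7 and replicate 1 for 3. Among the leading 10 lowered genes, replicate 1 was the highest for 6 and replicate 2 for 4. So among genes changed at least 2-fold without overlap, the library that had moved least depended on the direction. Over all genes called lower the 2 libraries were close, with replicate 1 the highest for 47% and replicate 2 for 43.5%. The MeJA pair farthest apart was replicates 1 and 2.

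The MeJA libraries also varied more than the mock libraries. The biological coefficient of variation, edgeR's common estimate of spread beyond counting error, was 18.6% within MeJA and 13.3% within mock. The chi-square statistic per degree of freedom between replicates was 26.9 for MeJA replicates 1 and 2, 16.7 for 1 and 3 and 13.3 for 2 and 3. For mock pairs it ran from 6.91 to 9.35. Totals ran from 14358443 to 17595784 counts, with MeJA replicate 3 the deepest and MeJA replicate 1 the shallowest library. ENSRNA features took 1.47%, 1.70% and 2.38% of the MeJA counts and 0.997%, 1.52% and 1.39% of the mock counts, with overlap, and of the 55 tested 4 were called higher and 0 lower, against 11.3% and 7.71% over all features. Their part in the differences between replicates was not tested.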

How the data were processed

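Per the labels' protocols, stranded paired-end mRNA libraries were made from leaf RNA with an integrity number above 7 and sequenced on an Illumina NovaSeq instrument. The table the authors deposited holds raw, unnormalised counts, 1 whole number per gene and library. Tools listed in the submitters' processing notes are FastQC, TopHat2, HTSeq and edgeR. Their roles and versions, the genome build, the annotation and any use of strand were not given in the sources used here. Reads shared by near-identical gene copies or by overlapping genes could therefore be split in an unknown way.

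The 6 libraries of 24 h were fitted alone with edgeR 4.0.16 (limma 3.58.1) in R 4.3.3: filterByExpr on the 2 groups, TMM factors, quasi-likelihood F-test, Benjamini-Hochberg adjustment over 25388 of 42186 features. SE is the log2 fold change divided by the root of F and is approximate. CPM at 24 h use this fit; CPM compared across times use TMM factors of all 18 libraries. Shares are percentages of the library total over all features. Ranks by level took called genes with a log2 fold change of at least 1 and groups that did not overlap; the first of each list was named. Folds against 0 counts use a floor of 3 counts over the group. Alternatives included DESeq2 1.42.0. Members, lists and rules were chosen with earlier results of these data known. Replicates are the biological replicates of the labels, which do not say how the plants were divided among them, so p-values measure only the spread between these libraries.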

Additional observations from a re-analysis of the deposited data

Results flagged for a closer look

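By the interaction test in the fit of all 18 libraries, the response to MeJA was called different between times for 3 of the named genes. All 3 were chosen by their fall at 24 h, which favours a larger fall at that time. The adjusted p-values do not allow for this choice. For Bra037196 the log2 response at 24 h minus that at 10 min was -1.371 (edgeR adjusted p = 0.00588) and minus that at 72 h was -1.68 (edgeR adjusted p = 0.00316), and over the libraries left out in turn the adjusted p reached at most 0.0227 and 0.0149. For Bra022267 the difference between 24 h and 10 min was -5.036 and for Bra040524 it was -5.195. Both were lost on leaving out replicate 3 of MeJA at 24 h, replicate 2 of mock at 24 h, or any of the 3 mock libraries of 10 min; Bra022267 was also lost without MeJA 10 min replicate 3 and Bra040524 without mock 24 h replicate 1. These libraries were left out one by one as a choice made after seeing the data. The difference between 24 h and 72 h was not called for Bra022267 (log2 -3.73, edgeR adjusted p = 0.248). Nor was it called for Bra040524 (log2 -2.03, edgeR adjusted p = 0.647).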

How the results depend on the processing

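Called genes numbered 2861 higher and 1957 lower. Leaving out 1 library gave 1449 to 3269 higher and 548 to 2524 lower, 34 to 64 on genes and 2 to 20 off genes; without MeJA replicate 3, 1986 of the 1997 calls were among the 4818. A 2-fold minimum gave 1377 and 800. Scaling by totals gave 3051 lower, and the fit of 18 libraries 3490 lower. DESeq2's size factors, DESeq2's own test, both filters and removal of ENSRNA features kept both counts within 1.5 times. Off genes numbered 9 in the fit of 18 libraries, 9 without a filter and 7 with a minimum mean of 1 CPM. The redirected share ran from 15.9% to 18.8% over the libraries left out, and the gain in share of genes called higher, 14.8 points, from 12.2 to 16.3. On TMM-scaled CPM in place of shares, the redirected share was 15.8% and the gain of genes called higher 16.2 points. The change of genes called lower was -4.59 points, from -6.25 to -1.55 over the libraries left out (-1.55 on removing MeJA replicate 3, and -2.23 and -2.25 on removing mock replicates 1 and 2, with genes called anew each time), and -3.93 on TMM-scaled CPM. All 5 named genes that changed stayed called, in the same direction, in all 15 alternatives (highest adjusted p 0.0193, Bra040524). All 5 were chosen on these libraries, and the on gene and the 2 off genes among them had to differ. The 2-fold setting reuses the main test. With the replicate number as a block, 2524 genes were called higher and 1709 lower, with 34 on genes and 2 off genes; the numbers did not pair the libraries (r = -0.01, -0.23 and 0.15; 1 of 3 MeJA libraries correlated best with its own number). At the depth of 24 h, 3 counts are 0.170 to 0.209 CPM.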
